A study of Mus musculus with 9 samples.

Results

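The 3 mouse lymphomas with the most Cdkn2a mRNA were compared, gene by gene, with the 3 that had the least, out of 9 lymphomas measured with 1 Affymetrix MOE430 2.0 array each. The Cdkn2a-high lymphomas were double-transgenic replicate 3, Eμ-Myc replicate 1 and double-transgenic replicate 5. The Cdkn2a-low lymphomas were Eμ-Myc replicate 4, double-transgenic replicate 1 and Eμ-Myc replicate 2. The other 3, double-transgenic replicates 2 and 4 and Eμ-Myc replicate 3, lay between them and are called the middle lymphomas. Every mouse carried Eμ-Myc, a transgene that expresses the oncogene Myc in the B lineage from an enhancer of the immunoglobulin heavy chain locus. The double-transgenic mice also carried Eμ-TTP-1, which places tristetraprolin (TTP), a protein that promotes the decay of mRNAs with AU-rich elements, under the same enhancer. The strain background was 94% C57BL/6 in all, and ages were not stated in these sources. The labels name the samples biological replicates without stating that each came from a separate mouse, so p-values measure the spread between these samples.

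The groups were chosen from measured Cdkn2a values, not from the labels, so the Cdkn2a levels themselves are a description with no test. Cdkn2a has a single probe set on the array. Its level, as log2 of the deposited intensity, was 12.32, 12.24 and 9.65 in the Cdkn2a-high lymphomas and 4.46, 2.62 and 2.60 in the Cdkn2a-low lymphomas. Values within a group are given in falling order of Cdkn2a from here on. The means were 11.40 ± 1.52 in the high and 3.23 ± 1.07 in the low lymphomas (SD, n = 3 each). The middle lymphomas read 6.94, 6.06 and 5.73, so that the value just inside the high group was 9.65 and that just outside 6.94, while the value just inside the low group was 4.46 and that just outside 5.73. The levels 2.62 and 2.60 lie in the range of genes at background, and the level of 4.46 lies near the log2 value of 4 that served as the limit for testing a gene.

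Cdkn2a encodes a pair of unrelated tumour suppressors that are read from different starts. p19ARF binds Mdm2 and so stabilises the transcription factor p53, while p16INK4a inhibits the kinases Cdk4 and Cdk6 and so keeps the retinoblastoma protein active. High Myc activity is known to induce p19ARF, and lymphomas of Eμ-Myc mice are known to lose either Cdkn2a or p53 often. In cells without p53 function Cdkn2a mRNA is known to accumulate, since p53 represses it. The name of the probe set marks it as one that can recognise several transcripts of a gene, and which of the 2 transcripts it read was not tested.

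The starts of the gene and the promoter of Cdkn1a, the best known target of p53, are shown because the comparison turns on them. The sequences are RefSeq windows of GRCm38.p6 from 250 bases before to 50 bases after a start, 5′ to 3′ on the strand of the gene. The upstream start of Cdkn2a, from which p19ARF is read, lies in the window chr4:89294570-89294869 on the minus strand. The downstream start, from which p16INK4a is read, lies in chr4:89282143-89282442 on the minus strand. Capitals in the upstream window mark the E2F-type motif TTTCCCGC.
Cdkn2a upstream promoter: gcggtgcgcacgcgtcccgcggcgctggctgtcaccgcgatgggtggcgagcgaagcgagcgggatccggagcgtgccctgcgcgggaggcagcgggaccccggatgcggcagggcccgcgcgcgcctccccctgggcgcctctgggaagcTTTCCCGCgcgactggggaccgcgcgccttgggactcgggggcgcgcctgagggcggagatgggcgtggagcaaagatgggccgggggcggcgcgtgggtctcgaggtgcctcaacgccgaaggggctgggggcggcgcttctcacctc
Cdkn2a downstream promoter: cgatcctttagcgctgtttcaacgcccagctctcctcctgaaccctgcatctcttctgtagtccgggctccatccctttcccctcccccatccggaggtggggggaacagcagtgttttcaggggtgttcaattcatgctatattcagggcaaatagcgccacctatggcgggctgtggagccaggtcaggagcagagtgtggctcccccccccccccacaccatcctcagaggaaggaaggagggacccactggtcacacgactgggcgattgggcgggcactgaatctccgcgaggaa
The upstream window has 77% G and C with 45 CpG dinucleotides, and the downstream window 60.33% with 12. TTTCCCGC, searched on both strands, stood at position 152 of the upstream window and not in the downstream one, and 351 of 32851 RefSeq promoters of this length (1.068%) hold it. The related letters TTTGGCGC (0.5144% of promoters) and the CACGTG box that MYC binds (7.15% of promoters) were in neither window.

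Cdkn1a has 2 such windows, and the one shown is chr17:29090729-29091028 on the plus strand. Its capitals mark a pair of exact p53 consensus decamers at positions 178 to 209, separated by 12 bases. The decamer directly after the second of them, tgacatgttc, departs from the consensus at its first letter and was therefore left unmarked. Which of these stretches p53 binds was not tested.
Cdkn1a upstream promoter: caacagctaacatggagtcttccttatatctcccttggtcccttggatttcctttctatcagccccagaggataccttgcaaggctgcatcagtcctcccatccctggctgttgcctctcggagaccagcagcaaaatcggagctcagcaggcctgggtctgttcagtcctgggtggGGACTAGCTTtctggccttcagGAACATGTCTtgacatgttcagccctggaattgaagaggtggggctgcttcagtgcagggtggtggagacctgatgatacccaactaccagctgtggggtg
Such a pair, with 0 to 13 bases between its parts, occurred in 24 of the 32851 promoters (0.0731%). Among 48 promoters of 32 genes in the list of p53-activated genes described here, that of Cdkn1a was the only window with a match, and many known p53 sites lie outside windows of this length.

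The arrays were alike in scale. Their median intensities were 12.2 to 13.4, and between 47.6% and 48.8% of probe sets read over 16. The labels give the tissue as lymphoma, and the B cell receptor genes Cd79a and Cd79b read 13.24 or more in all 9. Correlations of log2 values over all probe sets were 0.9757 to 0.9864 between Cdkn2a-high arrays, 0.9765 to 0.9806 between Cdkn2a-low arrays and 0.9715 to 0.9899 across the groups, so that overall likeness did not separate them. Xist, which is made in cells with an inactive X chromosome, exceeded a log2 level of 10 in 1 of 3 high, 1 of 3 low and 2 of 3 middle lymphomas. Genotypes were mixed, with 2 double-transgenic lymphomas in the high and 1 in the low group.

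No gene passed the test, from which Cdkn2a was left out. Of 10348 genes fitted with limma, 0% were called higher and 0% lower at the threshold of 0.05 after Benjamini-Hochberg adjustment. The smallest adjusted p from limma, that of Rgs16, was 0.0548. Before adjustment, 395 genes passed 0.05 as higher in the Cdkn2a-high lymphomas (3.82%) and 277 as lower (2.68%). The 3 high values all lay above the 3 low values for 643 genes (6.21%) and below them for 740 (7.15%). The median difference over all genes, Cdkn2a-high minus Cdkn2a-low in log2, was -0.02, and the median standard error was 0.25. The number of calls depended on double-transgenic replicate 1, a Cdkn2a-low lymphoma: without it 9 genes were higher and 6 lower at the same threshold. An exact permutation test of 3 against 3 cannot give a p under 0.1.

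The tested genes around Cdkn2a had overlapping levels in the Cdkn2a-high and Cdkn2a-low lymphomas, and Mtap and Ift74 were lowest in a single Cdkn2a-low lymphoma. Mtap, the adjacent gene, encodes an enzyme of methionine salvage and is often lost together with Cdkn2a in human tumours. Its level was 12.49, 12.11 and 12.02 in the Cdkn2a-high lymphomas and 12.39, 12.67 and 8.29 in the Cdkn2a-low lymphomas. The 8.29 belonged to Eμ-Myc replicate 2, and no other of the 9 arrays was under 11.77. All 4 Mtap probe sets showed it: they read 8.29, 7.16, 7.24 and 4.01 in that lymphoma, each below the other 8 arrays. The difference in log2, 1.09 (SE 1.21, adjusted p = 0.828 from limma), changed sign without Eμ-Myc replicate 2. Double-transgenic replicate 1, whose Cdkn2a was as low, had the highest Mtap level of the 9. DNA copy number was not measured here, so whether the gene was lost in either tumour was not tested.

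Other genes near Cdkn2a also stood out in that lymphoma. Zfp352, a zinc finger gene 3 places beyond Cdkn2a, read 11.90 in Eμ-Myc replicate 2, whereas the other 8 lymphomas were at 2.37 to 2.53. Its other probe set read 10.77 there and at most 2.62 elsewhere. Ift74, which encodes a part of the transport machinery of cilia, was lowest there at 7.82, against 8.63 to 9.40 in the others. Cdkn2b, which encodes the p15 inhibitor of Cdk4 and Cdk6 and lies next to Cdkn2a on the other side, was at background in all 9 lymphomas, with levels of 2.77 to 3.34. The plot of these genes by lymphoma shows the single low point of Mtap and the single high point of Zfp352.

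**Figure D1:**
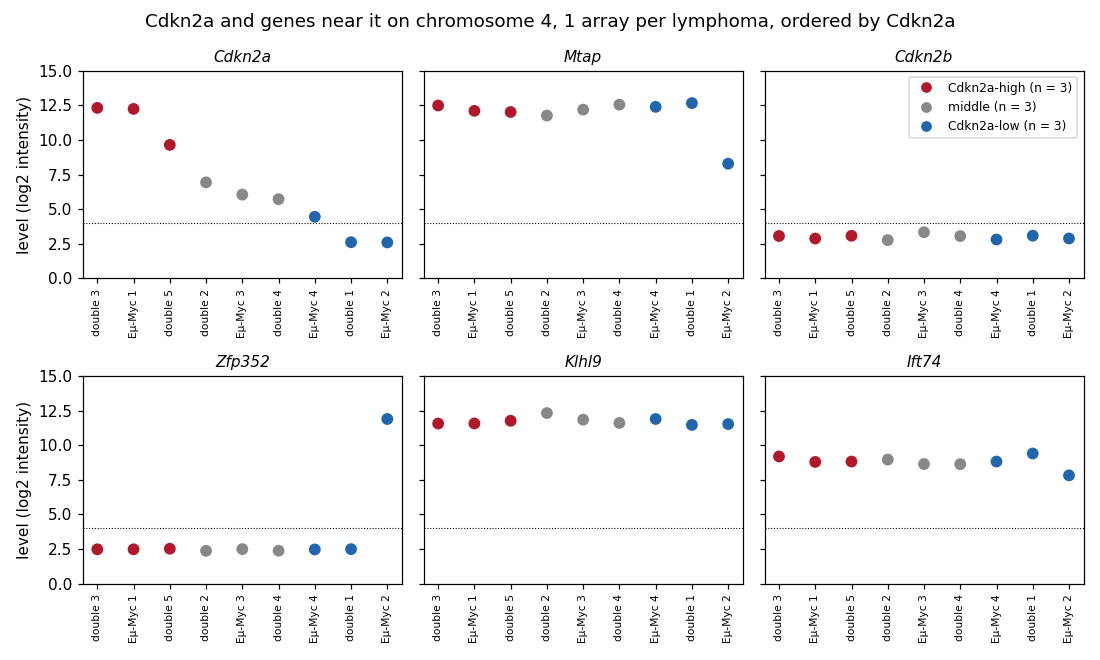
Log2 intensity of Cdkn2a and 5 genes within 12 places of it on chromosome 4 in each of 9 lymphomas, ordered by Cdkn2a, with 1 point per array and a dotted line at the log2 value of 4 used as the limit for testing. Mtap is low (8.29) and Zfp352 high (11.90) in Eμ-Myc replicate 2 alone, and Cdkn2b is at background in all 9.

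Of the 24 named genes within 12 places of Cdkn2a, all were on the array and 6 passed the filter on low values. Their median difference was 0.00, with 0 of 6 called. Klhl9, an adaptor of a ubiquitin ligase, read 11.57, 11.57 and 11.77 in the high and 11.90, 11.47 and 11.53 in the low lymphomas. Plaa (-0.04, SE 0.15), an activator of phospholipase A2, and Caap1 (0.00, SE 0.27), an apoptosis inhibitor, were likewise alike within their errors. Tusc1 read 3.93, 4.91 and 4.90 in the high and 6.40, 4.52 and 4.10 in the low lymphomas, and its highest level, 9.11, was in a middle lymphoma, double-transgenic replicate 2. Among the 18 below the filter were the type I interferon genes of the cluster, such as Ifnb1 (2.26 to 2.35) and Ifna4 (1.89 to 1.99), and Eqtn, which read 7.11 in Eμ-Myc replicate 1, with 2.85 to 3.00 elsewhere.

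Cdkn1a encodes the p21 inhibitor of cyclin-dependent kinases and is the target by which p53 halts the cell cycle. At its probe set of highest mean, Cdkn1a was lowest in both lymphomas with the most Cdkn2a. It read 5.52, 5.49 and 8.33 in the Cdkn2a-high lymphomas and 8.51, 8.41 and 8.17 in the Cdkn2a-low lymphomas. The middle lymphomas spread from 7.06 to 11.20. The low lymphomas were therefore nearly equal, while the high ones were split, with means of 6.45 ± 1.63 and 8.36 ± 0.17 (SD, n = 3 each). The log2 difference was -1.91 (SE 0.81), and it did not pass (limma adjusted p = 0.734). A second probe set of Cdkn1a differed by only -0.76. There Eμ-Myc replicate 3, a middle lymphoma, read 5.05, below the 5.45 of Eμ-Myc replicate 1.

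The p53-activated genes lay on both sides of 0. Of 40 listed genes 38 were on the array and 32 were tested, of which 14 were higher, 18 lower and 0 called. Their median difference was -0.19, against -0.02 over all genes, and it was 0.05 without double-transgenic replicate 1. The 3 and 3 values did not overlap for 3 genes that were higher, Trp53inp1, Btg2 and Sesn1, and for 1 that was lower, Dcxr. Over all genes the shares without overlap were 6.21% and 7.15%. Gdf15, Bax and Trp53 itself were not analysed here.

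The most positive differences in this list were those of Trp53inp1 and Btg2. Trp53inp1, which encodes a p53-induced protein of stress and autophagy, read 14.18, 14.32 and 13.44 in the Cdkn2a-high and 13.23, 12.45 and 12.15 in the Cdkn2a-low lymphomas. The difference was 1.37 in log2 (SE 0.37), with an adjusted p of 0.734 from limma. Btg2, an antiproliferative gene, read 11.49, 12.36 and 11.10 in the high and 11.01, 10.21 and 10.27 in the low lymphomas, a difference of 1.16 (SE 0.40). For both genes the high and low lymphomas did not overlap, though the gap between the nearest values was small. Psrc1, a spindle protein gene that p53 regulates, read 6.26, 5.98 and 9.996 in the high and 8.44, 9.70 and 7.87 in the low lymphomas, so its difference of -1.26 (SE 1.19) came from the same pair as that of Cdkn1a.

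**Figure D2:**
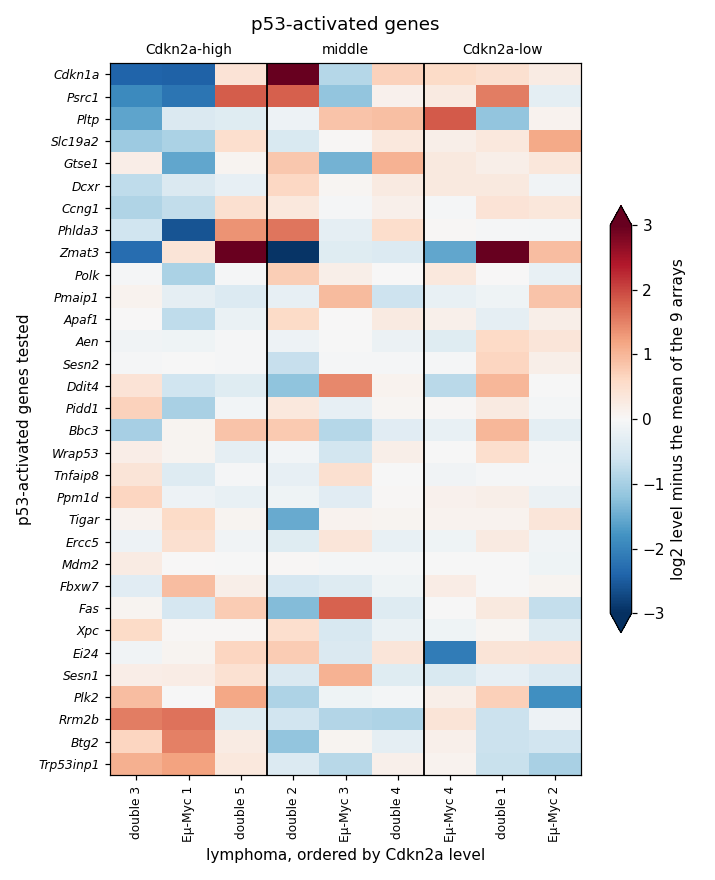
Log2 level of 32 tested p53-activated genes in each of 9 lymphomas, shown as the deviation from the mean of the gene over the 9 arrays; colours end at 3 in either direction. Lymphomas run from the highest Cdkn2a level on the left to the lowest on the right, and genes from the most negative difference (Cdkn1a, -1.91) to the most positive (Trp53inp1, 1.37); no block of colour separates the high from the low lymphomas.

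The split within the Cdkn2a-high group ran through several p53 targets. After the values were seen, both lymphomas with Cdkn2a over 12, double-transgenic replicate 3 and Eμ-Myc replicate 1, were set against the other 7. Of all 10348 genes, 555 lay above the other 7 in both (5.36%) and 539 below (5.21%). Of the 32 p53-activated genes, 3 lay above (Trp53inp1, Btg2 and Rrm2b) and 6 below (Cdkn1a, Ccng1, Phlda3, Dcxr, Psrc1 and Slc19a2). The second probe set of Cdkn1a did not place both lymphomas below the other 7. Ccng1, which encodes cyclin G1 and is among the most regular p53 targets of the mouse, read 11.12 and 11.30 in the pair and 11.98 to 12.52 in the other 7. Phlda3, a p53 target that restrains Akt, read 5.14 and 3.16 in the pair and 5.46 to 7.36 in the others. Rrm2b, which encodes a p53-induced subunit of ribonucleotide reductase, went the other way, with 11.04 and 11.14 in the pair and 8.58 to 9.90 in the others. Double-transgenic replicate 5, the third of the Cdkn2a-high lymphomas, had a Cdkn1a level within the range of the low group. At the probe set of highest mean it also had the highest Ccng1 level of the 9. At other probe sets of Ccng1, double-transgenic replicate 1 was highest, with 10.08 and 9.60 against 9.79 and 9.49 in double-transgenic replicate 5.

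None of the 32 genes passed limma with this pair against the other 7. The log2 differences were -3.11 for Cdkn1a (adjusted p = 0.263), -1.05 for Ccng1 (adjusted p = 0.134) and 2.03 for Rrm2b (adjusted p = 0.128). Mdm2, a p53 target that is also the partner of p19ARF, differed by only 0.16 (SE 0.11). The pair was chosen after the values were seen, so these figures describe it and are not independent support.

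**Figure D3:**
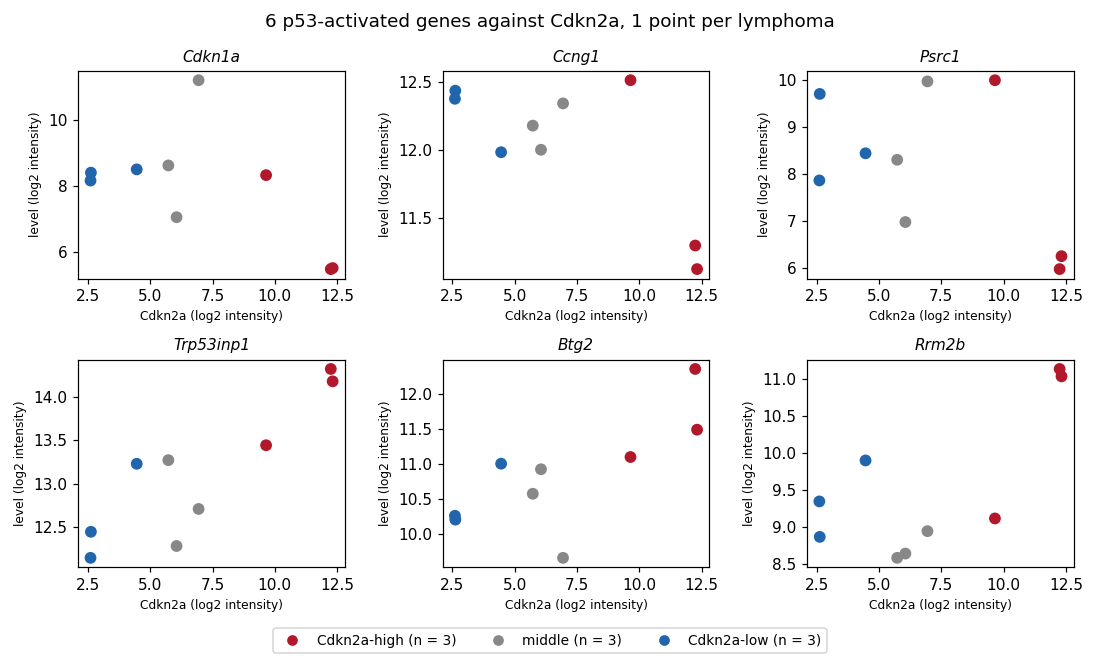
Log2 level of 6 p53-activated genes (vertical axes, each with its own range) against the log2 level of Cdkn2a (horizontal axes), with 1 point per lymphoma. At the right of each panel both lymphomas with Cdkn2a over 12 lie below the other 7 for Cdkn1a, Ccng1 and Psrc1 and above them for Trp53inp1, Btg2 and Rrm2b, while the Cdkn2a-high lymphoma at 9.65 lies with the rest for Cdkn1a and Rrm2b.

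Among the partners of p19ARF and p16INK4a, most values were alike at the probe sets of highest mean. Of 23 genes of the ARF, p53 and retinoblastoma core, 22 were on the array and 21 tested, with 11 higher, 10 lower, 0 called and a median difference of 0.00. Mdm2 read 8.58, 8.35 and 8.32 in the Cdkn2a-high and 8.32, 8.33 and 8.22 in the Cdkn2a-low lymphomas. Mdm4, its relative that also restrains p53, differed by 0.11 (SE 0.13), and Npm1, the nucleolar protein to which p19ARF binds, by 0.00 (SE 0.12). The ubiquitin ligases of p19ARF and its pathway, Huwe1 (0.01, SE 0.15) and Trip12 (-0.10, SE 0.16), were level too. Myc was at 14.03, 14.21 and 14.01 in the high and 13.85, 14.14 and 14.02 in the low lymphomas.

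The kinases that p16INK4a inhibits and the genes downstream of them varied more. Cdkn2c, which encodes the p18 inhibitor of the same kinases, read 9.85, 9.30 and 9.27 in the Cdkn2a-high and 11.44, 9.92 and 10.84 in the Cdkn2a-low lymphomas. The groups did not overlap, and differed by -1.26 (SE 0.42, adjusted p = 0.734 from limma). E2f1 is the transcription factor released when the retinoblastoma protein is inactivated. It was the other core gene without overlap at the probe set of highest mean. Its level was 8.61, 7.40 and 8.63 in the high and 9.20, 8.70 and 8.75 in the low lymphomas. Cdkn2c and E2f1 were 2 of 21 tested core genes, where 7.15% of all genes were lower without overlap. Cdk6 and Cdk4 had differences of 0.51 (SE 0.33) and 0.33 (SE 0.20), and Rb1 itself one of -0.16 (SE 0.24). Its relatives Rbl1 (-0.18) and Rbl2 (-0.24), the other E2F genes E2f2 (0.02) and E2f3 (-0.15), and the inhibitors Cdkn1b (0.25) and Cdkn2d (-0.27) overlapped between the groups.

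At their probe sets of highest mean, the D cyclins that activate Cdk4 and Cdk6 varied with individual lymphomas and not with the groups. Ccnd1 read 12.65, 8.86 and 12.61 in the Cdkn2a-high and 12.22, 12.60 and 12.32 in the Cdkn2a-low lymphomas, so its difference of -1.0 (SE 1.07) rested on Eμ-Myc replicate 1 and changed sign without it. Ccnd1 was lower still in a middle lymphoma, double-transgenic replicate 2 (8.03). Ccnd2 ranged from 5.55 to 12.31 over the 9 lymphomas, at 12.31, 6.24 and 7.77 in the high and 8.99, 6.60 and 10.29 in the low ones. Ccnd3 was highest in a middle lymphoma, double-transgenic replicate 2 (12.64), and differed by 0.03 (SE 0.65) between the groups. Its probe sets disagreed, since a second one differed by 1.38. That set read 9.84, 10.09 and 9.02 in the high and 7.47, 9.68 and 7.66 in the low lymphomas. It was highest in Eμ-Myc replicate 3 (10.21) and read 8.89 in double-transgenic replicate 2.

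Factors known to act on the Cdkn2a promoter showed no common direction. Of 25 listed genes, all on the array, 21 were tested, with 8 higher, 13 lower, 0 called and a median of -0.08. Polycomb proteins hold the locus silent, and of these Bmi1 read 11.35, 11.53 and 11.89 in the Cdkn2a-high and 10.91, 11.39 and 11.25 in the Cdkn2a-low lymphomas, while Ezh2 (-0.09) and Suz12 (-0.10) were alike. Cbx7, another Polycomb protein, was higher without overlap, at 9.28, 9.25 and 8.35 in the high and 8.10, 8.19 and 8.09 in the low lymphomas, a difference of 0.83 (SE 0.28). Junb was the single gene of the list that was lower without overlap (-0.32, SE 0.15). Over all genes 6.21% were higher and 7.15% lower without overlap. The most positive differences were those of Ets2 (1.49, SE 1.32), with 13.10 in Eμ-Myc replicate 1 alone, and Runx1 (1.01, SE 0.79). The most negative were those of Id1 (-0.75, SE 0.46) and Kdm2b (-0.42, SE 0.31).

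Genes of S phase and mitosis had slightly lower levels in the Cdkn2a-high lymphomas, mainly through 1 lymphoma. Of 48 tested genes 2 were higher, 46 lower and 0 called, with a median difference of -0.41, against -0.02 over all genes. The mean log2 level of these genes was 12.07, 11.09 and 12.01 in the Cdkn2a-high and 12.20, 12.05 and 12.10 in the Cdkn2a-low lymphomas. Only Eμ-Myc replicate 1, at 11.09, stood clear of the low group, and without it 19 genes were higher, 29 lower and the median was -0.06. Cdc6, a loader of the replicative helicase, showed the pattern at 12.29, 9.91 and 11.99 in the high and 12.27, 11.80 and 11.80 in the low lymphomas.

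A few genes of the cell cycle did not overlap. Those lower in all 3 Cdkn2a-high lymphomas were Ccna2 and Rrm1 among 24 S phase genes and Ube2c, Aurkb, Plk1, Birc5, Mki67 and Cdc20 among 24 mitosis genes, where 7.15% of all genes were lower without overlap. The 2 S phase genes are close to that background share. Ube2c, which encodes a ubiquitin carrier of mitotic exit, read 13.06, 12.26 and 13.17 in the high and 13.61, 13.33 and 14.25 in the low lymphomas (-0.90, SE 0.36, limma adjusted p = 0.734). Ccne1, which encodes cyclin E1, had the most negative S phase difference (-1.02, SE 0.38) with overlapping values, and Tyms, for thymidylate synthase, had -0.88 (SE 0.58). The genes with positive differences were Chaf1b (0.17, SE 0.61), a histone chaperone, and Ndc80 (0.27, SE 0.61), a kinetochore protein. Of 19 tested DNA damage genes 7 were higher and 12 lower (median -0.14), from Brca1 (-0.64) and H2ax (-0.62) to Lig4 (0.45) and Xrcc6 (1.12). Of 20 ribosome synthesis genes 3 were higher and 17 lower (median -0.13), from Ubtf (-0.75) and Rrp12 (-0.56) to Nop58 (0.05) and Ppan (0.09).

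The BCL2 family, which sets the threshold for cell death and through which Myc-driven tumours can also escape, gave 5 higher, 7 lower and 0 called genes of 12 tested, with a median of -0.12. Bmf, a gene of the proapoptotic BH3-only class, was higher without overlap, at 8.87, 7.90 and 8.51 in the Cdkn2a-high and 6.91, 7.56 and 6.73 in the Cdkn2a-low lymphomas (1.36, SE 0.34, limma adjusted p = 0.734). Bmf was the only such gene of the list, where 6.21% of all genes were higher without overlap. Bcl2 differed by 0.70 (SE 0.77), Bak1 by -0.42 (SE 0.36) and Bcl2l11, which encodes Bim, by -0.39 (SE 0.33). Bbc3, the p53 target that encodes Puma, read 6.82, 7.91 and 8.67 in the high and 7.59, 8.81 and 7.52 in the low lymphomas.

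The largest differences among the fixed lists were in the genes of the recombinase that assembles immunoglobulin genes in precursor B cells. Rag1 read 15.23, 14.76 and 14.26 in the Cdkn2a-high and 8.49, 10.66 and 3.05 in the Cdkn2a-low lymphomas, with means of 14.75 ± 0.49 and 7.40 ± 3.92 (SD, n = 3 each). The difference was 7.35 (SE 1.93, limma adjusted p = 0.734), and the middle lymphomas, at 10.60, 13.63 and 13.39, lay below all 3 high ones. Rag2 read 10.96, 7.76 and 9.14 in the high and 4.51, 6.93 and 2.45 in the low lymphomas (4.66, SE 1.35). Both were at background in Eμ-Myc replicate 2 only.

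Other precursor B genes did not share this order. Of 13 listed genes 12 were on the array and 11 tested, with 9 higher, 2 lower and a median of 0.71. Igll1 and Vpreb1, for the surrogate light chain of the pre-B receptor, were highest in the middle lymphomas double-transgenic replicates 2 and 4. Vpreb1 read 3.36, 2.51 and 3.13 in the Cdkn2a-high and 9.69, 2.48 and 2.48 in the Cdkn2a-low lymphomas, against 14.79 and 12.33 in those middle lymphomas. Igll1 had a difference of -2.14 (SE 1.44) that, like that of Vpreb1 (-1.88, SE 2.05), came from Eμ-Myc replicate 4. Sox4, a transcription factor of B cell progenitors, did not overlap between the groups (2.24, SE 1.17), mainly through its 9.41 in Eμ-Myc replicate 2. Rag1, Rag2 and Sox4 were the 3 of 11 genes that were higher without overlap, against 6.21% of all genes. In such bulk tumour RNA a smaller share of cells of a stage and less RNA per cell cannot be told apart.

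Genes of plasma cell differentiation were split. Irf4, which acts in precursor B cells, activated B cells and plasma cells, read 12.59, 12.51 and 11.86 in the Cdkn2a-high and 11.07, 11.08 and 10.07 in the Cdkn2a-low lymphomas (1.58, SE 0.36, limma adjusted p = 0.734). Sdc1, for the plasma cell marker CD138, was also higher without overlap, at 5.44, 7.74 and 6.06 in the high and 5.04, 3.37 and 4.00 in the low lymphomas. Prdm1, for Blimp-1, differed by 3.04 (SE 1.08) with overlapping values, while Xbp1 (-0.95, SE 0.44) and Jchain (-1.39, SE 2.15), which plasma cells need for secretion, had negative differences. Of 5 tested genes 3 were higher and 2 lower, with a median of 1.58. Irf4 and Sdc1 were the 2 that were higher without overlap, against 6.21% of all genes.

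Of 8 mature B genes 7 were higher and 1 lower (median 0.83), from the complement receptor Cr2 (-1.15, SE 2.09) and Cd22 (0.02, SE 0.27) to Cd83 (1.29, SE 0.79) and Cxcr5 (1.71, SE 0.93). Cxcr5 was higher without overlap, though its nearest values were 4.98 and 4.97, at 5.42, 8.13 and 4.98 in the Cdkn2a-high and 4.97, 4.90 and 3.54 in the Cdkn2a-low lymphomas. Of 7 pan-B genes 5 were higher and 2 lower (median 0.19). Blnk, an adaptor of B cell receptor signalling, did not overlap (0.43, SE 0.15), and Ms4a1, for CD20, read 11.05, 10.08 and 12.50 in the high and 11.25, 13.47 and 14.47 in the low lymphomas (-1.85, SE 1.01). No gene of these lists was called, and 6.21% of all genes were higher without overlap.

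**Figure D4:**
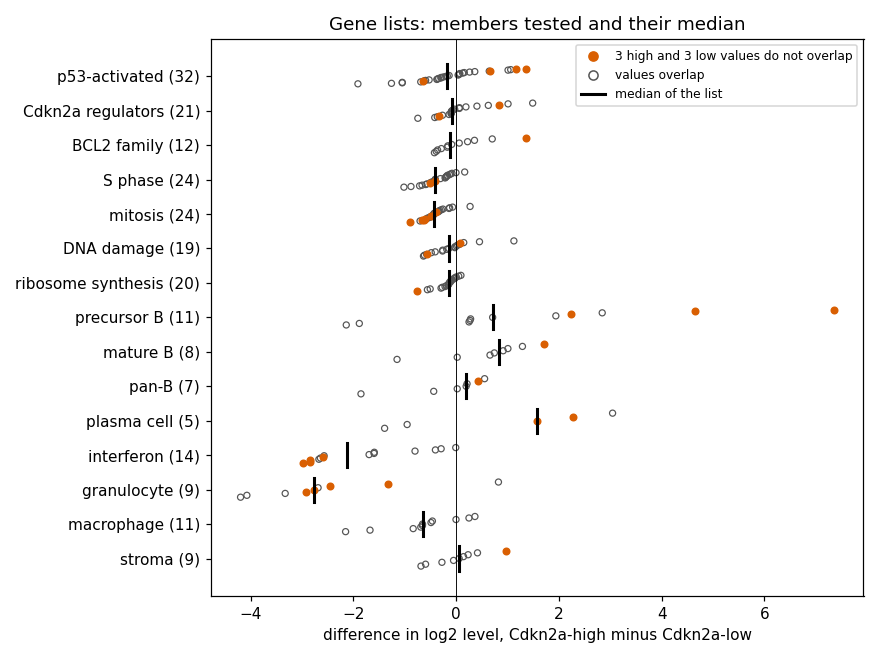
Log2 difference, Cdkn2a-high minus Cdkn2a-low, of each tested gene (points) in 15 gene lists, with the number tested in brackets and the median as a black bar. Orange points are genes whose 3 high and 3 low values do not overlap; the interferon (median -2.13) and granulocyte (median -2.77) lists lie to the left and Rag1 (7.35) lies farthest to the right.

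Interferon-stimulated genes, which cells switch on in response to type I interferon, had lower levels in the Cdkn2a-high lymphomas, with 0 of 14 tested members higher, 14 lower, 0 called and a median difference of -2.13. The 3 and 3 values did not overlap for 4 of them, Oas2, Mx1, Oas1a and Rsad2, all lower, where 7.15% of all genes were lower without overlap. Oas2, whose product makes the signal that activates RNase L, read 4.46, 2.79 and 6.05 in the high and 8.45, 6.59 and 7.21 in the low lymphomas (-2.98, SE 0.93, limma adjusted p = 0.734). Mx1, whose product restricts viruses, read 3.15, 2.34 and 3.86 in the high and 8.07, 5.71 and 4.09 in the low lymphomas (-2.84, SE 1.05). The middle lymphomas read 2.43 to 3.20, so Mx1 passed the filter on low values through the Cdkn2a-low lymphomas alone. Its lack of overlap was thereby fixed in advance and is no support. The least negative differences in the list were those of Irf9 (-0.29, SE 0.28) and Ddx58 (-0.01, SE 0.35).

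The interferon pattern was uneven within the Cdkn2a-low group. The mean log2 level of the 14 genes was 5.79, 5.26 and 7.16 in the Cdkn2a-high and 8.82, 8.18 and 6.69 in the Cdkn2a-low lymphomas, so the groups overlapped. The middle lymphomas read 6.18, 5.86 and 6.16, within the range of the high ones. The median was -1.31 to -3.02 when each lymphoma was left out in turn. The type I interferon genes beside Cdkn2a were at background.

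Granulocyte genes were lower in the Cdkn2a-high lymphomas as well. Of 9 tested genes 1 was higher, 8 lower and 0 called, with a median of -2.77. S100a9, a calcium-binding protein of neutrophils, read 4.76, 8.05 and 6.14 in the high and 11.19, 7.24 and 12.74 in the low lymphomas (-4.07, SE 1.61). Ngp, for a neutrophil granule protein, read 3.12, 5.20 and 3.29 in the high and 9.38, 5.03 and 9.79 in the low lymphomas (-4.19, SE 1.41). Mpo, Ltf, Lcn2 and Prtn3, all for granule proteins, were the 4 of 9 that were lower without overlap, against 7.15% of all genes. Their nearest values almost met, however, at levels near background. Mpo read 2.72 in double-transgenic replicate 1 of the low group and 2.71 in Eμ-Myc replicate 1 of the high group. In the same arrays Lcn2 read 4.51 and 4.50, and Prtn3 2.96 and 2.95. Mpo, Ltf and Prtn3 were under the log2 limit of 4 in every Cdkn2a-high lymphoma. The gene with a positive difference was Mmp9 (0.82, SE 0.57).

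This difference lay in Eμ-Myc replicates 4 and 2 and not in double-transgenic replicate 1. The mean log2 level of the 9 genes was 3.85, 4.81 and 4.26 in the Cdkn2a-high and 7.67, 4.55 and 8.34 in the Cdkn2a-low lymphomas, and 9.74, 9.59 and 5.498 in the middle ones. Without double-transgenic replicate 1 the median was -4.11, and Mpo, Ltf, Camp and Lcn2 were among the 6 genes called lower (limma adjusted p = 0.0239, 0.0129, 0.0239 and 0.0167). These 4 genes were near background in every Cdkn2a-high lymphoma, where such values spread little. The lymphoma left out had the lowest mean of these genes in the low group. The calls therefore follow from that omission and are no independent support. Elane, of the same list, did not pass the filter on low values. The part of infiltrating granulocytes in the other differences was not tested.

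Markers of other cells gave smaller differences. Of 11 macrophage genes 2 were higher and 9 lower (median -0.65), from Adgre1 (-2.15) and Fcgr1 (-1.68) to Csf1r (0.25) and Lyz2 (0.37), and none was without overlap. The mean log2 level of the macrophage list was 8.91, 9.82 and 9.49 in the high and 10.74, 9.61 and 9.78 in the low lymphomas. Of 9 genes of stroma and endothelium 5 were higher and 4 lower (median 0.06), with a median of 0.95 without Eμ-Myc replicate 4 and -0.59 without double-transgenic replicate 1. They had Dcn (-0.68) and Col1a1 (-0.59) at the lower end and Cdh5 (0.42) and Pecam1 (0.98, without overlap) at the upper. Of 9 T cell genes on the array 4 passed the filter, 1 higher and 3 lower (median -0.43, and 0.28 without Eμ-Myc replicate 4), and Cd8a was lower without overlap. T cell genes were highest in single lymphomas: Cd3d read 8.02 and Cd3g 6.38 in Eμ-Myc replicate 4, and Thy1 read 9.33 there and 9.73 in double-transgenic replicate 2, while Cd3e stayed at 2.75 to 3.43 in all 9. The NK list had 1 tested gene (Klrd1, -0.56) and the erythroid list 1 (Hba-a2, 0.10). Without overlap, 6.21% of all genes were higher and 7.15% lower.

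Outside the lists, the gene closest to the threshold was Rgs16, which encodes a regulator that ends G protein signals. It read 9.97, 10.003 and 9.88 in the Cdkn2a-high and 7.42, 7.17 and 6.96 in the Cdkn2a-low lymphomas. This was 2.77 higher in log2 (SE 0.16), with an adjusted p of 0.0548 from limma. All 3 probe sets of the gene were higher, with differences of 2.77, 4.36 and 1.77. The middle lymphomas read 5.26, 9.32 and 7.38, however, which does not place them between the groups. Rgs16 passed, at adjusted p of 0.0225 to 0.0485, when the values were quantile-normalised, centred on the median, given a pseudocount of 16 or filtered at a log2 level of 6.

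Several other genes of smallest p were near background in the Cdkn2a-low lymphomas and clearly measured in the Cdkn2a-high ones. Stac, for an adaptor protein of muscle and nerve, read 7.30, 7.98 and 7.78 in the high and 3.51, 4.25 and 3.12 in the low lymphomas (4.06, SE 0.35, limma adjusted p = 0.206), and the middle ones were at background too (3.09 to 3.15). Hdac11, for a histone deacetylase, read 6.36, 6.11 and 6.34 in the high and 2.78, 4.35 and 2.77 in the low lymphomas, with 2.46 to 2.83 in the middle ones. Outside the Cdkn2a-high group, only double-transgenic replicate 1 exceeded the log2 limit of 4 for Stac and Hdac11. Both genes thus met the filter through the high group and were picked for small p. Their separation from the other 6 lymphomas describes that choice and is no support. Rasgef1a (3.90), Ninl (2.79), Zfp579 (2.80) and Zfp105 (3.61) did not overlap the low group either, and Zfp579 read 3.89, 3.47 and 4.26 in the low lymphomas. Kdm5b, for a demethylase of histone H3 lysine 4, read 8.997, 9.51 and 8.60 in the high and 5.46, 4.61 and 5.76 in the low lymphomas (3.76, SE 0.39, limma adjusted p = 0.264), and a second probe set had a difference of 3.20.

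The rest of the 12 higher genes of smallest p were above the log2 limit of 4 in both groups. Ypel3, a growth suppressor that p53 induces in human cells, read 10.66, 10.74 and 10.14 in the Cdkn2a-high and 8.85, 8.48 and 8.10 in the Cdkn2a-low lymphomas (2.04, SE 0.27). Svil, for the actin-binding protein supervillin, differed by 1.42 (SE 0.19). For Purg (1.23) and Rabgap1l (1.58) the probe sets of the gene disagreed: the second of Purg had a difference of 0.04, and those of Rabgap1l ran from -0.86 to 2.36.

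Among the 12 lower genes of smallest p, Mt1 led. It encodes metallothionein 1, which binds zinc and other metals, and read 10.56, 10.17 and 10.62 in the Cdkn2a-high and 12.22, 12.48 and 12.31 in the Cdkn2a-low lymphomas (-1.88, SE 0.18, limma adjusted p = 0.234). The middle lymphomas, at 11.91 to 12.65, lay with the low group, and a second probe set of Mt1 differed by -0.49. Cryl1, for an enzyme of sugar metabolism, followed at 7.65, 7.36 and 7.64 in the high and 9.05, 8.88 and 9.20 in the low lymphomas (-1.49, SE 0.16), and 3 probe sets agreed in sign. Tnfrsf13b, for the B cell receptor TACI that binds BAFF and APRIL, read 11.26, 10.71 and 11.04 in the high and 11.89, 12.24 and 12.28 in the low lymphomas (-1.14, SE 0.21).

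Chil3, for a chitinase-like protein secreted by myeloid cells, had the largest of the lower differences (-5.17, SE 0.79). It was near background in the Cdkn2a-high lymphomas, at 3.83, 3.86 and 4.40, against 7.70, 10.85 and 9.06 in the Cdkn2a-low lymphomas. H2bc22, a histone gene, was below the log2 value of 4 in all 3 high lymphomas (3.51, 3.59 and 3.65) and just above it in the low ones (4.61, 5.05 and 5.17). Coro2a (-2.56), an actin regulator, and Abcc3 (-1.58), a membrane transporter, were low in the high group and each highest in a middle lymphoma. The remaining lower genes were Kcnab2 (-0.91), Cmc2 (-1.27), Ebpl (-0.74), Adap1 (-1.34) and Prag1 (-1.60).

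**Figure D5:**
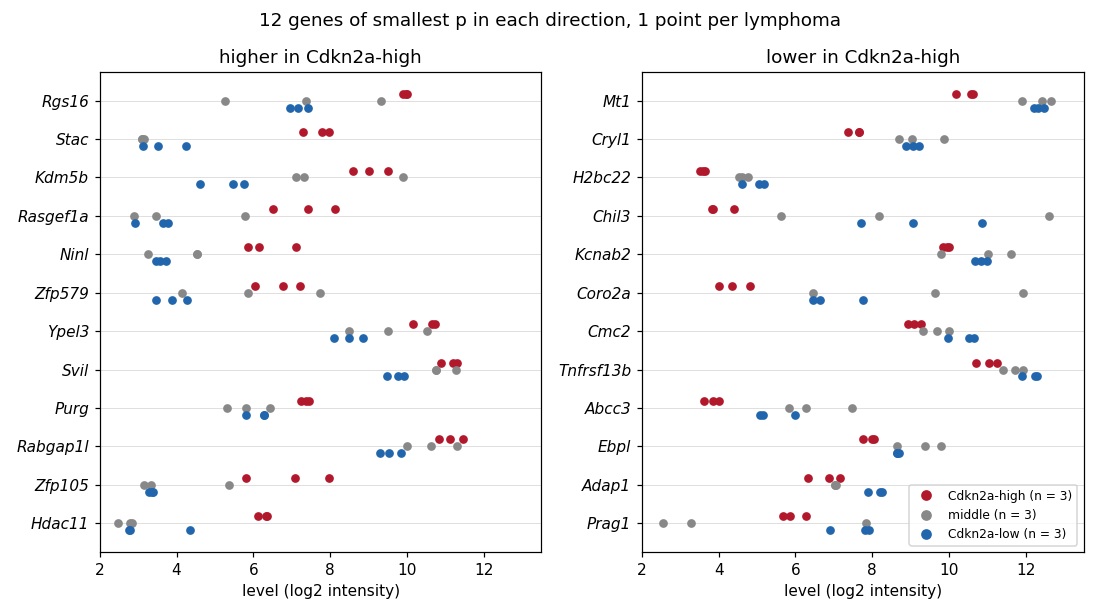
Log2 intensity of the 12 genes of smallest p that were higher (left) and the 12 that were lower (right) in Cdkn2a-high lymphomas, with 1 point per lymphoma. By choice of the genes the red and blue points do not overlap. The middle lymphomas lie with the low group for Stac and Mt1. For Kdm5b they read 9.90, 7.12 and 7.31, above all the low lymphomas, and for Rgs16 they spread from 5.26 to 9.32.

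The genes most like Cdkn2a in pattern were taken as those with the highest or lowest Pearson correlation with it over the 9 arrays. They were picked for their extreme values from 10348 genes, so the correlations describe the choice and are no test, over 9 points that share 1 normalisation and include the 6 arrays of the comparison. Kdm3a, for a demethylase of histone H3 lysine 9, had the highest value (r = 0.964, Spearman's rho 0.933), and r over 7 arrays was 0.916 without Eμ-Myc replicate 1 and double-transgenic replicate 3, which lay farthest from the median of Cdkn2a. Its level was 11.36, 11.52 and 10.91 in the Cdkn2a-high, 10.64, 10.28 and 10.40 in the Cdkn2a-low and 10.59 to 10.82 in the middle lymphomas. Tmem163, for a zinc transporter of membranes, had the widest range, with 9.06, 10.30 and 8.05 in the high, 4.69, 5.86 and 4.17 in the low and 6.52 to 6.86 in the middle lymphomas (r = 0.935). Tbc1d17 (r = 0.937), Cyth3 (r = 0.931), Gm5914 (r = 0.929) and Mxd4 (r = 0.924) completed the group. Mxd4 encodes a partner of MAX that opposes MYC, and its level was 11.41, 10.82 and 10.45 in the high against 9.89, 9.70 and 9.58 in the low lymphomas.

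In the opposite direction, H2bc22 had the lowest correlation (r = -0.970), at levels near background. Slc7a5, for an amino acid transporter that MYC induces, read 11.80, 12.05 and 12.38 in the Cdkn2a-high and 12.53, 12.83 and 12.64 in the Cdkn2a-low lymphomas (r = -0.929). Tmem248 (r = -0.954), Pdpr (r = -0.928), Syncrip (r = -0.926) and Med16 (r = -0.925) were the others, and Syncrip, for an RNA-binding protein, was at most 13.38 in any lymphoma and differed by -0.27 (SE 0.13) between the groups. Without the same pair of arrays r stayed between -0.784 and -0.940 for these 6 genes.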

How the data were processed

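RNA from 9 mouse lymphomas was hybridised to 1 MOE430 2.0 array each after column purification and biotin labelling by in vitro transcription, per the labels' protocols. The authors deposited probe set intensity values from 1.56 to 123104.7, made with GCRMA per the submitters' processing notes; no version is stated there. GCRMA corrects background by probe sequence, and weak probe sets keep low values that still vary on the log2 scale. Scanner files and scan dates were not analysed here.

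Log2 was taken without a pseudocount. Of 45037 probe sets, 34945 had 1 gene in GEO's platform annotation, 932 several and 9160 none; 34741 matched RefSeq names. Each of 18193 genes was represented by its probe set of highest mean, and 10348 genes above log2 4 on 3 or more of the 9 arrays entered limma 3.58.1 in R 4.3.3 (lmFit, eBayes, two-sided, Benjamini-Hochberg, threshold 0.05) on 6 arrays without covariates, Cdkn2a left out. The names of 464 of them end in _x_at, which marks sets that may read related transcripts. Tested on simulated data, the fit called 4 of 10148 genes made without a difference. That count bears on false calls only and does not say how many true differences the fit misses. The number of arrays limits the precision.

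The comparison and the lists were chosen with earlier results of these data known. Named genes were the core and neighbouring genes, the 12 of smallest p in each direction, the 2 at each end of every other list, and the 6 most and least correlated with Cdkn2a; other members are named for their lack of overlap or as examples, after their values were seen. Probe sets of several genes or none were left out. Alternatives are given in the closing section.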

Additional observations from a re-analysis of the deposited data

How the results depend on the processing

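Of the genes called higher in the Cdkn2a-high lymphomas and the genes called lower in the Cdkn2a-high lymphomas, 0 each in the comparison as reported, the number higher was 1 with a log2 filter of 6 in at least 3 arrays (Rgs16, adjusted p = 0.0425), 1 with quantile normalisation (Rgs16, 0.0225), 1 with median centring (Rgs16, 0.0485), 1 with a pseudocount of 16 (Rgs16, 0.0401) and 1 with all 9 arrays and a middle group (Stac, 0.0135). The number higher ran from 0 to 9 and the number lower from 0 to 6 when each array was left out; only leaving out double-transgenic replicate 1 gave calls. Setting the 2 highest against the other 7, chosen after seeing the data, gave 3 higher (A430035B10Rik, Bcas1 and Slc2a6) and 0 lower. The median difference of the p53-activated genes was -0.33 with genotype as a covariate and -0.231 to 0.0474 with each array left out, positive only without double-transgenic replicate 1; the cause was not tested. The median difference of the genes next to Cdkn2a on chromosome 4, 0.00, was negative with no filter (-0.00868), without Eμ-Myc replicate 2 (-0.113) and without double-transgenic replicate 1 (-0.0633). Medians near 0 also changed sign for the BCL2 family (0.14 without double-transgenic replicate 3), DNA damage (0.02 without Eμ-Myc replicate 1), pan-B (-0.02 without Eμ-Myc replicate 4), Cdkn2a regulators (0.02 without Eμ-Myc replicate 4) and core genes (lowest -0.26, without double-transgenic replicate 3). The other alternatives (no filter, log2 over 4 in at least 4 arrays, mean of all probe sets, no _x_at probe sets, an intensity trend with a robust prior, a slope on Cdkn2a, 4 highest against 4 lowest) gave 0 calls, with lowest adjusted p from 0.0507 to 0.769. Of 92 single genes 62 kept their sign in all 20 alternatives, and the others changed it in 1 or more. No paired analysis was possible because the labels give no pairing of the lymphomas, and replicate numbers run separately within each genotype. Levels near background limit folds such as those of Chil3, H2bc22 and Stac.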
